A study of Homo sapiens with 12 samples.

Results

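Human breast cancer cells carrying a short hairpin RNA against BHLHE40 (LM BHLHE40-KD cells) were compared with cells carrying a control vector (LM-EV cells) after 48 h of hypoxia and low glucose. The comparison rests on 4 of the 12 bead arrays of the series, 2 for each line, chosen by the sample labels alone, and it covers every gene detected in the series. LM cells are a derivative of MDA-MB-231 that forms lung metastases, and MDA-MB-231 is an established line from a triple-negative breast carcinoma. By the labels the cells of all 4 arrays had 48 h at 1% O2 with low glucose (1 mg/ml), and both lines were kept in puromycin. The methods describe these arrays by the hypoxia alone, so the glucose level rests on the labels. The other 8 arrays hold the same lines untreated (0 h) and after 6 h. The knockdown line was 1 stable line made with 1 hairpin by lentiviral transduction, so the comparison is between 2 cell lines, and an effect of the hairpin cannot be told apart from other differences between them. Each of the 6 groups was hybridized once on each of 2 slides, and a difference within a slide is the difference between the arrays of that slide. The methods name 2 independent experiments. That a slide holds 1 of them is read from the layout.

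BHLHE40 (also called DEC1) is a basic helix-loop-helix transcription factor that is known to bind E-boxes, to act mostly as a repressor and to take part in the circadian clock. HIF1A, the oxygen-regulated subunit of the hypoxia-inducible factor, is known to induce it. The comparison asks which genes differ in expression between the line with the hairpin against BHLHE40 and the control line, both held in hypoxia.

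Of the genes known to be expressed in MDA-MB-231 cells, VIM, CD44, MSN, CAV1 and AXL were found at high signal in both lines. EGFR and the keratin genes KRT8 and KRT18 were detected on all 4 arrays at lower signal. VIM, the mesenchymal intermediate filament protein, had a normalized intensity of 71327 and 67992 on the BHLHE40-KD arrays, and of 69894 and 69937 on the LM-EV arrays. PGR, the progesterone receptor, and PTPRC, the leukocyte marker CD45, were detected on none of the 4 arrays. CDH1 (E-cadherin) and ESR1 (the estrogen receptor) were detected on 0 of 2 BHLHE40-KD arrays and 1 of 2 LM-EV arrays each. ERBB2 (the receptor HER2) was detected on all 4 arrays, with 1065 and 892 in BHLHE40-KD cells, against 1313 and 1146 in LM-EV cells. The epithelial genes EPCAM and CLDN7 were detected on all 4 arrays, and so was PECAM1, known as an endothelial marker. SPARC, a matrix protein that MDA-MB-231 cells are known to express, was detected in LM-EV and not in BHLHE40-KD cells.

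BHLHE40 itself, the target of the hairpin, had intensities of 3198 and 3585 in BHLHE40-KD cells at 48 h (slides 1 and 2), against 3365 and 6482 in LM-EV cells. It was lower in BHLHE40-KD on both slides, by little on slide 1 (log2 difference of -0.07) and by more on slide 2 (-0.85), and 1 BHLHE40-KD array lay above an LM-EV array. The fitted log2 difference was -0.46 with a standard error (SE) of 0.29 and did not pass the threshold (adjusted p = 0.322, limma). Without the LM-EV array of slide 2 it was -0.06, and without that of slide 1 it was -0.86. At 0 h, on other arrays, the difference was -0.83. The position of the BHLHE40 probe in the transcript was not examined. The paralog BHLHE41 had 151 and 141 in BHLHE40-KD cells, against 34.2 and 77.6 in LM-EV cells, a log2 difference of 1.5 that did not pass (adjusted p = 0.159).

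The canonical E-box CACGTG, which reads the same on both strands, was searched in RefSeq promoter windows (build GRCh38.p14, 250 bases before to 50 after the start site). Of the genes higher in BHLHE40-KD cells at 48 h, 803 had a window and 75 of these held the motif (9.34%). Of the genes lower in BHLHE40-KD cells, 827 had a window and 84 held it (10.2%). Over all genes tested the share was 10.1% (1004 of 9895), and over all 27305 promoters in the table it was 7.43%. Among the 15 largest rises, 4 of 12 matched windows held the motif, and among the 15 largest falls 1 of 9 did. The stretches below surround the E-boxes (in capitals) of BHLHE40, of the clock gene CIART and of 2 of the 4 large rises with the motif. The 1 large fall with the motif, GPM6B, is not printed. The stretches were picked from named genes that hold the motif, so they do not show that large changes go with it. They lie at chr3:4979187-4979257 (plus strand), chr1:150282365-150282562 (plus), chr1:53142633-53142758 (minus) and chr19:16888915-16889040 (plus). A match is a run of letters and not a binding site.
BHLHE40: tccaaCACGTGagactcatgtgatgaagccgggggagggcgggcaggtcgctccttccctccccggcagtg
CIART: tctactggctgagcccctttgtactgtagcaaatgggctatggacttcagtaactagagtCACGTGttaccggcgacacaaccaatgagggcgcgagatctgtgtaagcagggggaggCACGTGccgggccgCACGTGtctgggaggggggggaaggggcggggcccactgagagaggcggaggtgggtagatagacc
SLC1A7: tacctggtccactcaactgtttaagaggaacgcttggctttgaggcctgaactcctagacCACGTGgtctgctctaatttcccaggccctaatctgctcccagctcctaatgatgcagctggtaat
F2RL3: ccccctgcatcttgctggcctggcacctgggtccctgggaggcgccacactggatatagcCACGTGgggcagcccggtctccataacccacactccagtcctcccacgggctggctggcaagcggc

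Across the 12336 genes tested, 973 were higher (7.89%) and 1061 lower (8.6%) in the knockdown line at an adjusted p under 0.05, relative to LM-EV cells at 48 h. These genes are said to be called here. All 2034 had the same sign on both slides, which calling them on these same arrays largely sets. Over all genes the share was 72.0%. Of the called genes, 374 were higher and 476 lower by at least 2-fold, and 31 were higher and 51 lower by at least 8-fold, by fitted differences in which an undetected signal under 16 counts as 16. The rule of the study, at least 1.5-fold in the same direction on each slide, gave 879 higher (7.13%) and 991 lower (8.03%), of which 648 and 754 were also called in the same direction. The median difference over all genes was 0.01. The count rests on all 12 arrays for its estimate of the spread: with the 4 arrays at 48 h alone 347 genes were called, and without 1 array at 48 h 746 to 879. In RNA from a whole culture, fewer cells that express a gene and less of its RNA per cell cannot be told apart.

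Most called genes lay on the same side before hypoxia. Of the 973 genes higher in BHLHE40-KD at 48 h, 943 were also on the higher side at 0 h and 628 were called there. Of the 1061 lower genes 1044 were on the lower side and 699 were called. Over all 12336 genes, 1172 were called higher and 1074 lower at 0 h. The counts of list members at 0 h given below stand against these. The share of all genes that keep their side was not counted. There were 2 genes called in opposite directions at the 2 times. The median log2 difference of the higher genes was 0.86 at 48 h and 0.74 at 0 h, and that of the lower genes was -0.92 and -0.78. Over all genes the differences at 48 h and 0 h had a correlation of 0.774, and those of the 2 slides at 48 h had one of 0.683. These are descriptions across genes, which are not independent. The arrays at 0 h and 48 h are different arrays of the same 2 lines and slides.

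**Figure D1:**
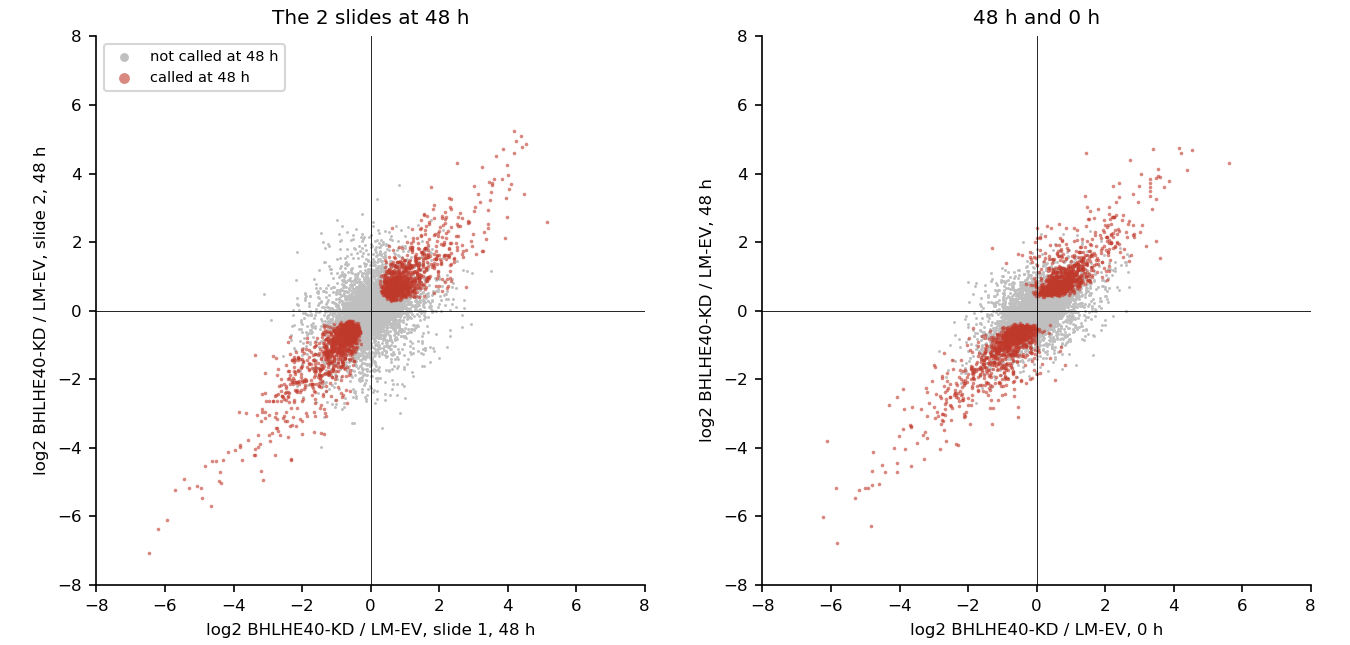
Each point is 1 of the 12336 genes, with the log2 ratio of BHLHE40-KD over LM-EV on slide 1 (x axis) against slide 2 (y axis) at 48 h on the left, and at 0 h (x axis) against 48 h (y axis) on the right; red points are called at 48 h. The called genes lie in the lower left and upper right, which calling them at 48 h largely sets in the left panel. In the right panel 943 of the 973 higher and 1044 of the 1061 lower genes keep their side at 0 h.

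Many of the largest differences were between a signal and none. Of the 15 largest rises, 12 were detected on neither LM-EV array at 48 h, and the 15 largest falls were detected on neither BHLHE40-KD array. For such a gene the fold is a lower bound. It sets the mean of the line that expressed the gene against, on each array of the other line, the lowest signal of any detected probe or the gene's own signal if higher. In all, 192 genes were detected on both BHLHE40-KD arrays and no LM-EV array, and 203 genes the other way round.

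HSD17B2, which oxidizes estradiol and testosterone, had 335 and 544 in BHLHE40-KD cells and was at the floor of 16 on both LM-EV arrays, at least 8.86-fold higher (adjusted p = 2.38e-05). SLC1A7, a glutamate transporter, had 651 and 622 in BHLHE40-KD cells, against 35.4 and 16.4 in LM-EV cells, at least 13.2-fold higher. F2RL3, the thrombin receptor PAR4, had 583 and 495 in BHLHE40-KD cells, against 31.0 and the floor in LM-EV cells, at least 11.2-fold higher. All 3 of these genes were also called higher at 0 h. CEMIP, a protein needed for hyaluronan breakdown, was detected in both lines, with 1326 and 2193 in BHLHE40-KD cells, against 83.0 and 142 in LM-EV cells (log2 difference 3.97, SE 0.25). The other rises were C1orf115, ZBED2, ASB2, RARRES2 (the chemoattractant chemerin), TSPAN7, FAM133A, FLG (filaggrin), NAP1L3, NOX5 (an NADPH oxidase), FAM174B and SLPI (an inhibitor of leukocyte proteases). FAM133A was detected in both lines (4.09 on the log2 scale) and NOX5 on 1 LM-EV array (3.87). The others were detected on no LM-EV array and were at least 4.73-fold (FAM174B) to 9.53-fold (C1orf115) higher.

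APCDD1L had the largest fall: it was at the floor on both BHLHE40-KD arrays and at 1422 and 2160.4 on the LM-EV arrays, at least 37.3-fold lower (adjusted p = 2.3e-06). The cancer-testis antigen genes MAGEA3, MAGEA6 and MAGEA12 were at the floor on both BHLHE40-KD arrays. In LM-EV cells MAGEA6 had 1171 and 1339, and MAGEA3 had 626 and 585. These genes are near-identical copies on chromosome X, and a probe may bind more than 1 of them. CDH11, the cadherin of osteoblasts and fibroblasts, was at the floor on both BHLHE40-KD arrays and had 481 and 710.4 in LM-EV cells, at least 12.4-fold lower. THY1 (CD90) was at the floor on both BHLHE40-KD arrays and had 537 and 554 in LM-EV cells, and SPARC was at the floor there and had 499 and 579. THBS2 (thrombospondin 2) and ENG (endoglin, a TGF-beta co-receptor) were at least 8.9-fold and 11.4-fold lower. HS6ST2, CDC42EP5, ZNF558, EFNB3, GPM6B and GLB1L2 complete the 15 and were at least 7.75-fold (GLB1L2) to 20.6-fold (CDC42EP5) lower. All 15 were also called lower at 0 h.

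**Figure D2:**
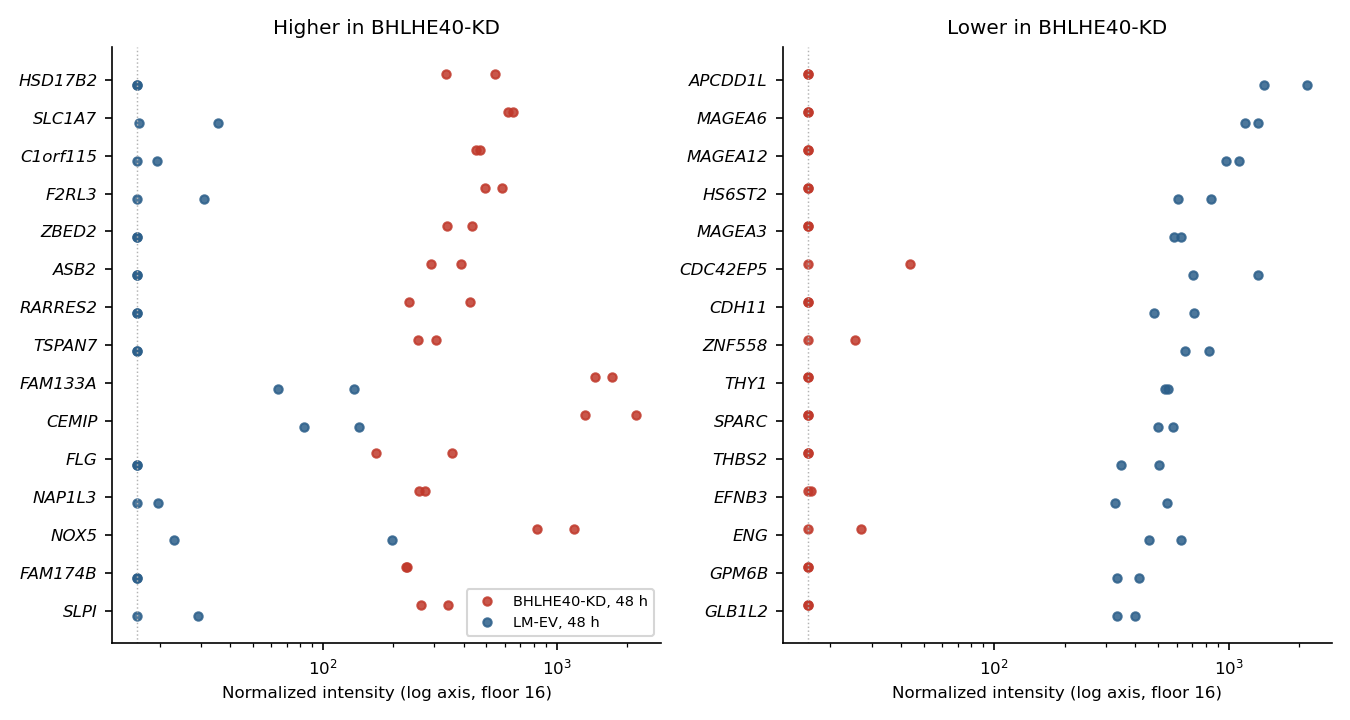
Normalized intensity (log axis, values under 16 drawn at 16) of the 15 genes with the largest rise (left) and the 15 with the largest fall (right) at 48 h; each point is 1 array, red for BHLHE40-KD and blue for LM-EV. The genes were picked for their large differences on these arrays, so the gap between the 2 lines is set by that choice. In the right panel the BHLHE40-KD arrays lie at 16 or little above it.

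The called genes were spread unevenly over the chromosomes. A chromosome was known for 12316 tested genes, and this pattern was looked for after other results had been seen. On chromosome 13, 101 of 210 tested genes were lower in BHLHE40-KD cells (48.1%) and 4 were higher (1.9%), and the median log2 difference was -0.67. It was -0.64 on slide 1 and -0.73 on slide 2 at 48 h, and -0.77 at 0 h and -0.64 at 6 h. On chromosome 15, 155 of 400 tested genes were higher (38.8%) and 7 were lower (1.75%), with a median of 0.54, which was 0.53 and 0.50 on the slides, 0.53 at 0 h and 0.54 at 6 h. Chromosomes 10 and 11 had medians of -0.34 and -0.29, with 17.4% and 18.0% of their genes lower, chromosome 5 had a median of -0.20 with 17.8% lower, and chromosome 14 had a median of 0.24 with 14.4% higher.

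The shifts ran over long stretches of neighbouring genes. The tested genes of each chromosome were taken in order in 482 blocks of 25. The median difference was -0.5 or lower in 17 blocks and 0.5 or higher in 18. All 8 blocks of chromosome 13 were among the 17, and 11 of the 18 lay on chromosome 15. Each of the 35 blocks had a median of the same sign at 0 h, and 13 of the low blocks and 14 of the high blocks passed 0.5 there too. The high block of chromosome 6, from SOX4 to H4C8, was small at the other times. Its median was 0.59 at 48 h, 0.09 at 0 h and 0.10 at 6 h. On chromosome 13 the blocks ran from -0.91 to -0.61, the lowest being that from CKAP2 to OBI1. All 19 blocks of chromosome 10 and all 28 of chromosome 11 had a negative median at 0 h, 6 h and 48 h. On chromosome 5 the 15 blocks from BTF3 to TRIM41 were negative at each of the 3 times. On chromosome 3 the first 12 blocks were all negative at the 3 times and the block that followed, from FHIT to PPP4R2, had a median of 0.55. BHLHE40 lies in the first block of chromosome 3, from IL5RA to JAGN1, which had a median of -0.39. Chromosome 8 had its lowest blocks at one end (-0.52, -0.69 and -0.69), chromosome 18 had 2 low blocks from HDHD2 to SERPINB8 (-0.74 and -0.57), and the X chromosome had high blocks from SLC38A5 to PRICKLE3 (0.82) and from FGD1 to MSN (0.71).

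As a comparison, no block passed 0.5 in either direction between 48 h and 0 h in LM-EV cells, where block medians ran from -0.27 to 0.23. The medians of whole chromosomes ran from -0.08 to 0.05 between these times in BHLHE40-KD cells and from -0.07 to 0.05 in LM-EV cells. Of the 11706 tested genes on the other chromosomes, 813 were higher (6.95%) and 953 lower (8.14%). The part of this shift in the difference of any single gene was not tested. The chromosome is given beside the genes of chromosomes 13 and 15 that are described below, with the block's median for some genes elsewhere. A gene given without a block median may also lie in a shifted block. Of the genes described below, FASN and TGFB3 lie in blocks with medians of -0.56 and 0.52. The blocks of IFITM1, CADM1 and PDGFA had medians of -0.48, -0.47 and 0.48. Of the genes already described, CEMIP, NOX5 and FAM174B lie on chromosome 15. THY1 and SPARC lie in blocks with medians of -0.52 and -0.50 on chromosomes 11 and 5.

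**Figure D3:**
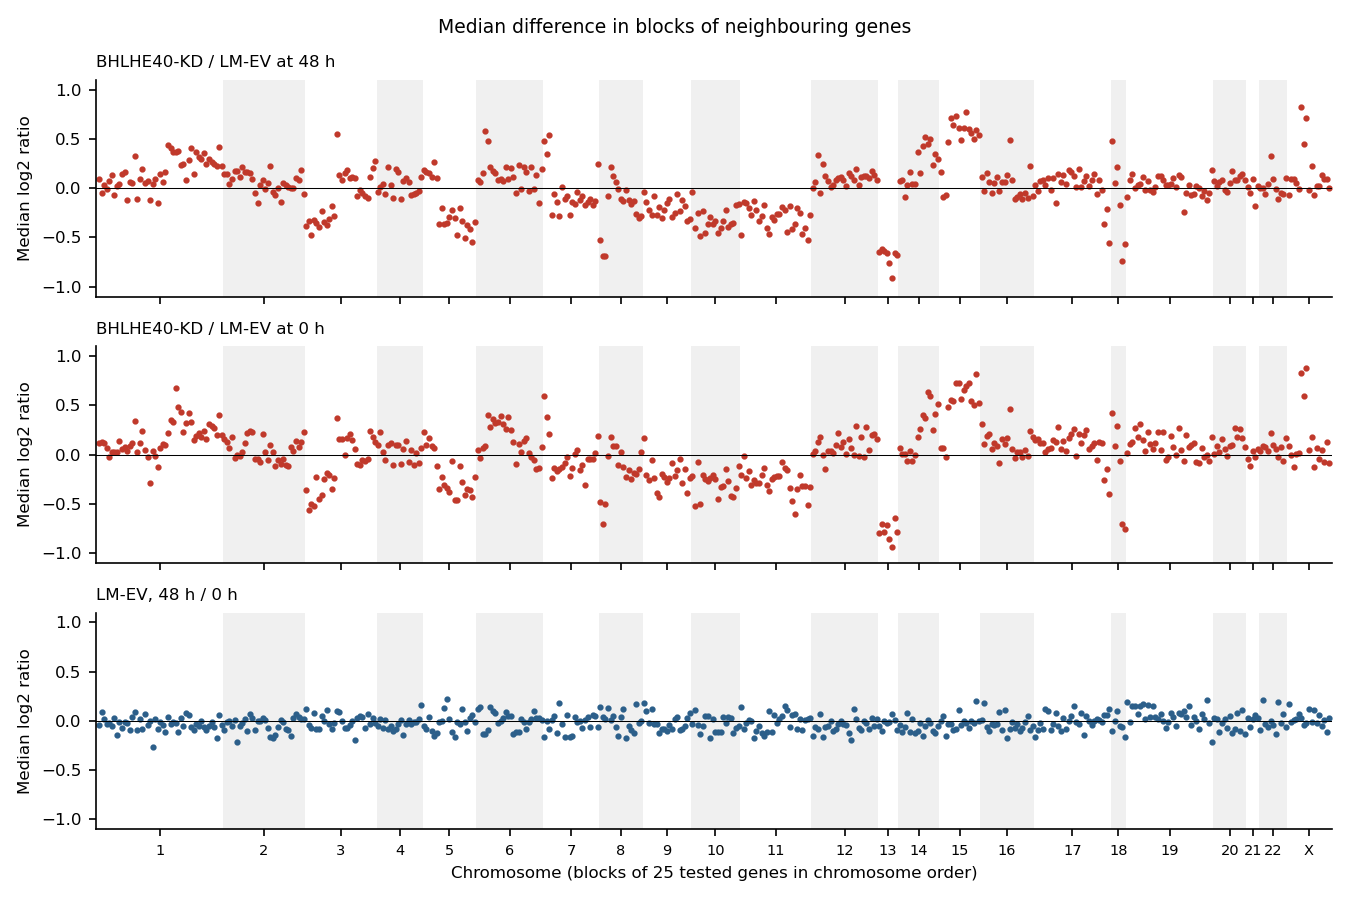
Median log2 ratio (y axis) of each of 482 blocks of 25 tested genes in chromosome order (x axis), for BHLHE40-KD over LM-EV at 48 h (top) and at 0 h (middle), and for LM-EV cells at 48 h over 0 h (bottom). Chromosome 13 lies between -0.91 and -0.61 at 48 h, most of chromosome 15 lies above 0.4, and the bottom panel stays within -0.27 and 0.23.

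Genes of the hypoxia response were called at about the background share or below it. Of 34 tested targets of HIF outside glycolysis, 3 were higher (8.82%) and 1 was lower (2.94%), and their median difference was 0.06. VEGFA, the main angiogenic growth factor, had 1713 and 1977 in BHLHE40-KD cells, against 452 and 684 in LM-EV cells (log2 difference 1.73, SE 0.16, adjusted p = 0.000831). VEGFA was higher by 1.52 at 0 h as well. Here and below, changes given after a gene are log2 differences of BHLHE40-KD over LM-EV from the fit. DDIT4, an inhibitor of mTORC1, had 15247 and 21374 in BHLHE40-KD cells, against 8089 and 14843 in LM-EV cells (0.72, adjusted p = 0.0246). LOX, which crosslinks collagen, had 3377 and 4847 in BHLHE40-KD cells, against 5544 and 12026 in LM-EV cells (-1.01, adjusted p = 0.0486). Among the HIF subunits and oxygen sensors 1 of 9 was called: EPAS1 (HIF-2 alpha) had 2350.3 and 2474 in BHLHE40-KD cells, against 1182 and 1836 in LM-EV cells (0.71, adjusted p = 0.0447). HIF1A had 5928 and 6371 in BHLHE40-KD cells, against 3986 and 3906 in LM-EV cells (0.64, adjusted p = 0.0663).

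Of 25 tested genes of glycolysis and glucose entry, 2 were higher and 0 lower, with a median of 0.22. PKM, the pyruvate kinase gene on chromosome 15, had 36688 and 35165 in BHLHE40-KD cells, against 19031 and 21952 in LM-EV cells (0.81, adjusted p = 0.00933). GBE1, the glycogen branching enzyme, was higher by 0.78. LDHA, which makes lactate, had 69196 and 69857 in BHLHE40-KD cells, against 68655 and 70961 in LM-EV cells, near the top of the intensity range.

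The clock genes had 2 of 20 members higher (10.0%, against 7.89% of all genes) and 1 lower (5.0%, against 8.6%). The list shares that follow stand against the same 2 values. CIART, a repressor of the CLOCK-BMAL1 activator whose promoter stretch is printed above, had 36.4 and the floor in BHLHE40-KD cells, against 249 and 298 in LM-EV cells, and was at least 5.8-fold lower (adjusted p = 0.00237). CLOCK itself had 2118 and 1978 in BHLHE40-KD cells, against 1447 and 1117 in LM-EV cells (0.69, adjusted p = 0.0222). NR1D1, which encodes the repressor REV-ERB alpha, was called higher with 43.3 and 60.5 in BHLHE40-KD cells, against the floor and 29.7 in LM-EV cells, close to the detection limit, and its difference was 0.0 with a floor of 64. Among HDAC and corepressor genes 2 of 22 were higher (HDAC8 and SIN3B) and 2 lower (HDAC11, and SAP18 on chromosome 13). HDAC1 and HDAC2, the histone deacetylases with which the study was concerned, had differences of 0.17 (adjusted p = 0.339) and -0.09 (adjusted p = 0.673).

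The study drew up a panel of cytokines and growth factors from these cells. By the paper, hypoxia induced its members at least 1.5-fold at 6 h or 48 h, and the knockdown diminished this induction. The comparison of the lines at 48 h does not measure the induction. Because the panel was chosen on these samples for reduced expression in BHLHE40-KD, its direction is not independent evidence. Of its 27 tested members 17 were called lower and 0 higher, all 27 had a negative fitted difference, and the median was -0.68. At 0 h 12 of the 27 were called lower and the median was -0.76. HBEGF, a ligand of the EGF receptor, had 4185 and 3104 in BHLHE40-KD cells, against 9034 and 7228 in LM-EV cells (-1.16, SE 0.17, adjusted p = 0.00539). HBEGF was lower at 0 h too (-0.99), with 4091 and 4126 in BHLHE40-KD cells, against 9208 and 7269 in LM-EV cells. HBEGF lies on chromosome 5, in the block from HSPA9 to NDUFA2, which had a median of -0.48 at 48 h and -0.46 at 0 h.

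The largest differences of the panel were in FGF13, with 185 and 162 in BHLHE40-KD cells, against 952 and 1677 in LM-EV cells (-2.87), and in GMFG, with 193 and 437 in BHLHE40-KD cells, against 1339 and 2465 in LM-EV cells (-2.64). MDK (midkine), a heparin-binding growth factor, had 1464 and 1822 in BHLHE40-KD cells, against 4563 and 6919.9 in LM-EV cells (-1.78, adjusted p = 0.000831), but the probes of MDK disagreed, with differences of -1.78 to 0.0 over 3 probes. IL32, JAG2 (a Notch ligand), NRTN, EBI3, CMTM7, IL1A, EDN1 (endothelin 1), FGF1, CMTM3, NAMPT, CSPG5, CCN2 (CTGF) and VEGFC were also lower, with log2 differences of -0.50 to -2.26. IL11 (-0.68, adjusted p = 0.0977), VEGFB, CMTM8, FLT3LG, CCL3L1, IL12A, IL15, IL17A, IL25 and TNFSF12 did not pass. IL15 and TNFSF12 had a small positive difference on slide 1 (0.07 and 0.04).

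**Figure D4:**
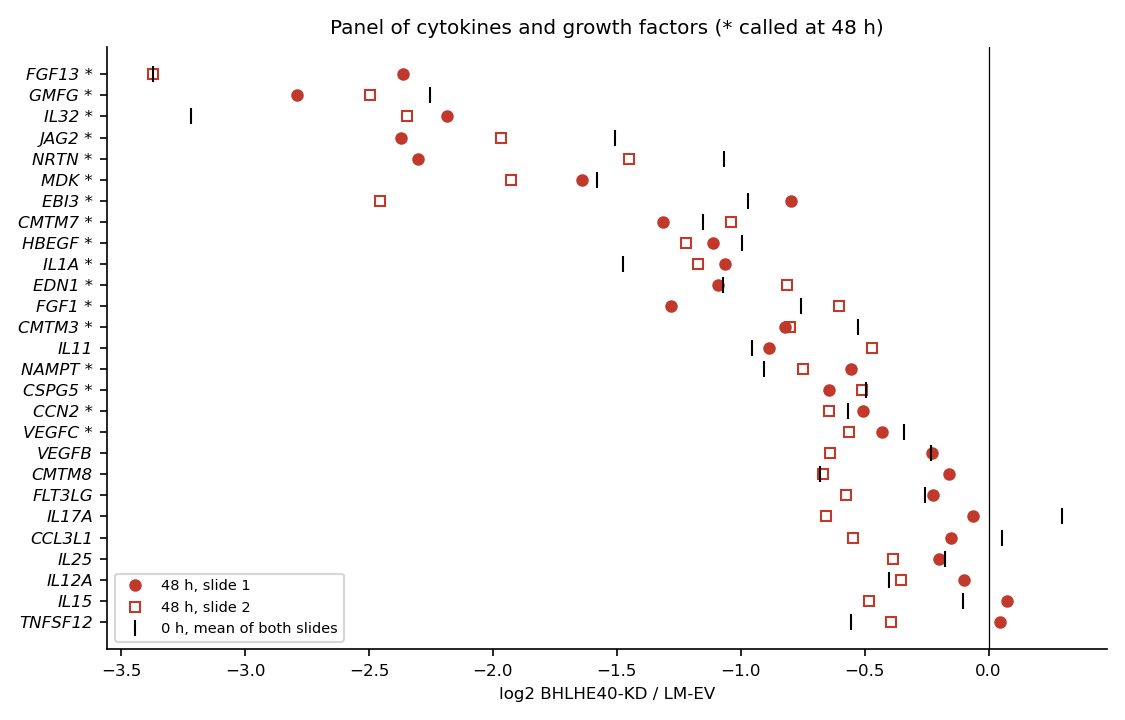
Log2 ratio of BHLHE40-KD over LM-EV (x axis) of the 27 tested genes of the study's panel of cytokines and growth factors, on slide 1 (filled circles) and slide 2 (open squares) at 48 h and as the mean of both slides at 0 h (black ticks); asterisks mark the 17 genes called at 48 h. All points at 48 h are negative but those of IL15 and TNFSF12 on slide 1.

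Other secreted factors were higher. Of 23 tested chemokines, interleukins and relatives outside the panel, 6 were higher (26.1%) and 2 lower (8.7%), with a median of -0.02. CSF3, the granulocyte colony-stimulating factor, had 8687 and 7952 in BHLHE40-KD cells, against 910.3 and 437 in LM-EV cells (3.72, SE 0.27, adjusted p = 0.000278). CCL26, an eosinophil chemokine, had 1605 and 2333 in BHLHE40-KD cells, against 202 and 495 in LM-EV cells (2.61). CXCL2, a neutrophil chemokine, and IL24 were higher by 1.68 and 1.60. In the other direction TNFSF10 (TRAIL), which triggers apoptosis through death receptors, had 35.0 and 22.5 in BHLHE40-KD cells, against 319 and 579 in LM-EV cells, and was at least 9.14-fold lower. CCL2, a monocyte chemokine, was at the floor on both BHLHE40-KD arrays and detected on both LM-EV arrays, at least 1.68-fold lower.

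In the EGF receptor family 3 of 12 tested genes were higher (25%) and 1 lower (8.33%), with a median of 0.72. TGFA, another ligand of the receptor that HBEGF binds, had 3036 and 2978 in BHLHE40-KD cells, against 849 and 1128 in LM-EV cells (1.62, adjusted p = 0.00096), opposite in direction to HBEGF. EGFR had 5534 and 5094 in BHLHE40-KD cells, against 2538 and 3032 in LM-EV cells (0.94, adjusted p = 0.00866), but a second EGFR probe had a difference of -0.02. NRG1, a ligand of ERBB3 and ERBB4, was higher by 0.83, and the sheddase gene ADAM15 was lower (-0.51). The 3 probes of NRG1 ran from 0.10 to 0.83 and the 4 of ADAM15 from -0.53 to 0.03. Feedback genes of the ERK pathway, which EGF receptors activate, had 1 of 17 members higher (IER3, 1.14) and 3 lower (SPRY2 on chromosome 13, DUSP5 and SPRED2, -0.59 to -0.75), and their median was -0.45. Of 17 AP-1 and immediate early genes 4 were higher (IER3, FOSL2, ZFP36 and JUND) and 1 was lower (JUNB, -0.80).

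Exosome genes, chosen because the study examined HBEGF in exosomes, had 2 of 33 members higher (6.06%) and 7 lower (21.2%), with a median of -0.02. The paralogs RAB27A and RAB27B, GTPases that dock multivesicular bodies at the plasma membrane, differed in opposite directions. RAB27A, on chromosome 15, had 1795 and 1881 in BHLHE40-KD cells, against 876 and 810.4 in LM-EV cells (1.12, adjusted p = 0.00452). RAB27B had 1434 and 1358 in BHLHE40-KD cells, against 3491 and 4932 in LM-EV cells (-1.57, adjusted p = 0.00934), and lies on chromosome 18 in a block with a median of -0.74. CHMP4C, an ESCRT-III subunit (-2.13), TSPAN8 (-1.52) and HGS, an ESCRT-0 subunit (-0.60), were lower.

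Of 40 tested interferon-stimulated genes 11 were lower (27.5%, against 8.6% of all genes) and 1 was higher, with a median of -0.40. IFI27 had 142 and 197 in BHLHE40-KD cells, against 1199 and 1548 in LM-EV cells (-3.02, SE 0.19, adjusted p = 0.000138). IFITM1, which restricts virus entry, had 621 and 983 in BHLHE40-KD cells, against 2891 and 4910.3 in LM-EV cells (-2.27). BST2 (tetherin), which holds virions at the cell surface, had 171 and 266 in BHLHE40-KD cells, against 702 and 1325 in LM-EV cells (-2.18). EPSTI1, on chromosome 13, was at the floor on both BHLHE40-KD arrays and at 88.0 and 77.1 on the LM-EV arrays. The 1 member that was higher was GBP1 (0.68). At 0 h the list had a median of -0.08 with 6 members lower. Of 18 genes of MHC class I presentation, TAP2 and PSMB10 were lower and 0 were higher. The second TAP2 probe had a difference of 0.17.

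Genes of the extracellular matrix were called in both directions. Of 33 tested collagens, laminins and matrix proteins 7 were higher (21.2%) and 8 lower (24.2%), with a median of -0.42. LAMA4, a laminin chain of vessel and muscle basement membranes, had 117 and 129 in BHLHE40-KD cells, against 1142 and 1592 in LM-EV cells (-3.46). COL5A1, a fibrillar collagen, had 2788 and 2946 in BHLHE40-KD cells, against 675 and 1128 in LM-EV cells (1.72). THBS1, on chromosome 15, was lower (-1.34). Of 27 matrix enzymes and inhibitors 7 were higher and 5 lower. The hyaluronan synthases were higher along with CEMIP: HAS2 had 3966 and 3425 in BHLHE40-KD cells, against 1060.1 and 925 in LM-EV cells (1.90), and HAS3 had 194 and 189.7 in BHLHE40-KD cells, against 23.6 and 23.4 in LM-EV cells (at least 3.98-fold higher). CD44, the main receptor of hyaluronan, had 22225 and 17493 in BHLHE40-KD cells, against 40679 and 39245 in LM-EV cells (-1.02, adjusted p = 0.004). MMP3 (stromelysin) was higher by 1.93, CTSB (cathepsin B, on chromosome 8 in a block with a median of -0.69) was lower (-1.56), and TIMP3, an inhibitor of matrix proteases, was undetected in BHLHE40-KD cells and at least 2.48-fold lower.

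Adhesion genes had 1 of 27 members higher (ITGB5, 0.71; 3.7% of the list) and 9 lower (33.3%). VCAM1, which binds leukocyte integrins, had 58.9 and 47.5 in BHLHE40-KD cells, against 612 and 885 in LM-EV cells (-3.80, adjusted p = 0.000392), and its 3 probes ran from -3.80 to -0.68. ICAM1 (-2.11) and CLDN11 (-2.33) were lower, and CADM1, undetected in BHLHE40-KD cells, was at least 1.73-fold lower. Of 26 tested genes known from lung metastasis of breast cancer 4 were higher and 6 lower. PTGS2 (cyclooxygenase 2) had 6923 and 6129 in BHLHE40-KD cells, against 2163 and 2086 in LM-EV cells (1.62), and FSCN1 (fascin) was higher by 0.86, while LY6E had 3451 and 3905 in BHLHE40-KD cells, against 14796 and 17318 in LM-EV cells (-2.12). The members of this list thus did not move one way.

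The TGF-beta list had 9 of 34 members higher (26.5%) and 1 lower (2.94%), with a median of 0.21. GDF15 had 3628 and 7626 in BHLHE40-KD cells, against 509 and 1242 in LM-EV cells (2.73, adjusted p = 0.000384). TGFB3 had 160.2 and 78.9 in BHLHE40-KD cells, against the floor on both LM-EV arrays, at least 2.34-fold higher. BMP4 was higher by 1.37, and so was its antagonist NOG, by 1.45. SMAD4, the shared signal transducer of the family, was the lower one (-0.61) and lies in the same block of chromosome 18 as RAB27B. At 0 h 11 members were higher.

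Keratins and luminal or basal factors had 5 of 18 members higher (27.8%) and 2 lower (11.1%). SPDEF, an ETS factor of luminal epithelium, had 975 and 1045 in BHLHE40-KD cells, against 247 and 232 in LM-EV cells (2.08). FOXA1, the pioneer factor of luminal cells, had 1286 and 1114 in BHLHE40-KD cells, against 616 and 363 in LM-EV cells (1.34). KRT80 and TFAP2A were higher by 1.74 and 0.80. TFAP2C, the AP-2 gamma factor, went the other way, with 249 and 289 in BHLHE40-KD cells, against 2262 and 2264 in LM-EV cells (-3.08), and KLF5, on chromosome 13, was lower (-1.26). Among factors of the epithelial-mesenchymal transition SNAI2 (Slug, 1.17) and EPCAM (0.75) were higher, and CDH11 and PRRX1 (-1.31) were lower, of 9 tested.

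Genes of DNA replication were mostly on the lower side: of 40 tested, 32 had a negative difference, against 6028 of all 12336 genes. Of the 40, 7 were called lower (17.5%) and 2 higher (5.0%), with a median of -0.23. CCNE1 (cyclin E1) had 317 and 313 in BHLHE40-KD cells, against 875 and 679.7 in LM-EV cells (-1.29). MCM5, a helicase subunit (-0.98), and RFC3, on chromosome 13 (-0.89), were lower, while RFC4 was higher by 0.55. Of 41 mitosis genes 4 were higher, among them CCNB2 on chromosome 15 (0.80), and 2 were lower, HMMR (-1.74) and CDC25C (-0.69).

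Of 28 genes of lipid droplets and fatty acid use 1 was higher (3.57%) and 4 were lower (14.3%), among them ACSL5 (-1.54) and the fatty acid carrier FABP5 (-0.80). In cholesterol and fatty acid synthesis and transport 2 of 29 were higher, among them the exporter ABCA1 (0.90), and 4 lower (13.8%), among them FASN, fatty acid synthase (-0.90). Of 35 ATF4 targets, amino acid and tRNA genes 1 was higher and 2 lower. Respiratory chain subunits had 1 of 63 higher (1.59%) and 2 lower (3.17%), and ribosomal protein genes had 0 of 67 higher and 6 lower (8.96%). Of 13 metallothionein and zinc transport genes 2 were higher and 2 lower (15.4% each). MT1M was at the floor on both BHLHE40-KD arrays and at 191 and 219 on the LM-EV arrays, at least 4.35-fold lower. Of 22 NRF2 antioxidant genes 2 were higher (9.09%) and 3 lower (13.6%), among them GCLC (-1.30), a subunit of the enzyme that starts glutathione synthesis.

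**Figure D5:**
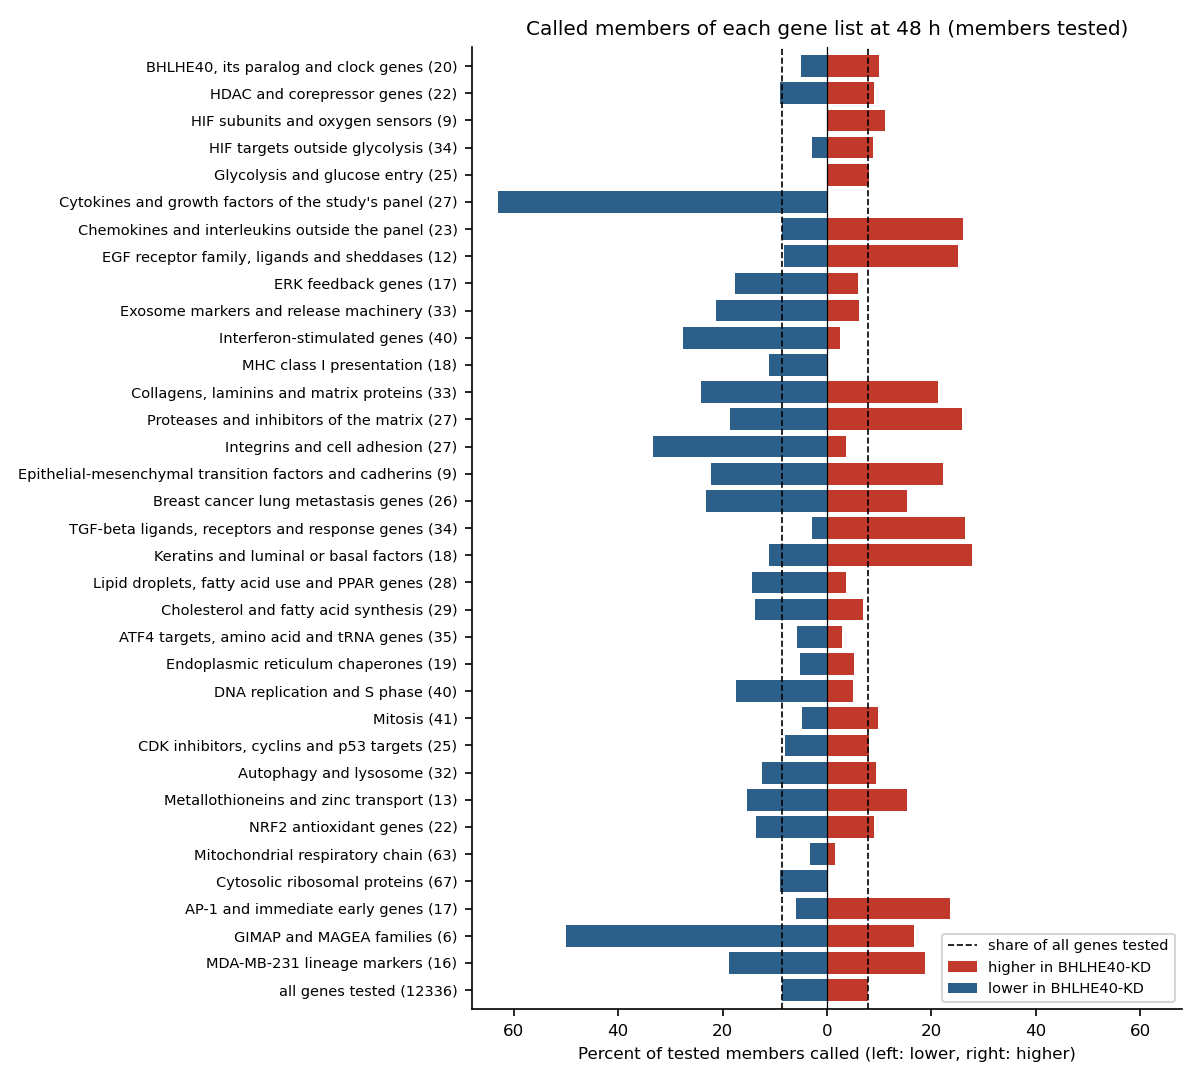
Percent of the tested members of each gene list called higher (red, right) or lower (blue, left) in the BHLHE40-KD line at 48 h, relative to LM-EV, with the number tested in parentheses; the dashed lines are the shares of all genes, 7.89% and 8.6%. The panel of the study reaches furthest to the left. Interferon, matrix and adhesion genes lie past the line on that side, as do many other lists, and matrix genes also lie past the line on the right. The respiratory chain lies inside both lines.

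No gene had a difference between the lines at 48 h that differed from that at 0 h at an adjusted p under 0.05 (0.0% of 12336 genes, limma interaction term), and 834 genes had an unadjusted p under 0.05. The same test against 6 h called 0 genes. The interaction has a median SE of 0.255 on the log2 scale, and large fitted values did not pass either: that of ZBED2 was 3.15 (SE 0.57, adjusted p = 0.328). A count of 0 therefore does not show that the differences were the same at both times. The 6 called genes with the smallest interaction p are given as values. PLA2G4D, a phospholipase A2 gene on chromosome 15, had 67.4 and 109 in BHLHE40-KD cells at 48 h, against the floor on both LM-EV arrays, and was at the floor on all 4 arrays at 0 h. PDGFA, a platelet-derived growth factor chain, had 393 and 330.3 in BHLHE40-KD cells, against 129 and 94.1 in LM-EV cells at 48 h (1.71), and 144 and 146 in BHLHE40-KD cells, against 165 and 163 in LM-EV cells at 0 h (-0.18). Both genes were picked by their interaction p, so the unlike differences at the 2 times restate that choice, and neither passed the test.

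MMP1, interstitial collagenase, was the abundant gene among the 6. It had 40679 and 49157 in BHLHE40-KD cells at 48 h, against 59406 and 67145 in LM-EV cells (-0.50), and 15030.2 and 16455 in BHLHE40-KD cells at 0 h, against 52838 and 61391 in LM-EV cells (-1.86). The LM-EV values lie near the top of the intensity range. ALPL (alkaline phosphatase) was at least 1.56-fold lower at 48 h and at the floor on all 4 arrays at 0 h. SPMIP8 was at least 2.44-fold lower at 48 h, and PRPH (peripherin) was at least 2.16-fold higher at 48 h, with a difference of -0.04 at 0 h.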

How the data were processed

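RNA was hybridized to 12 Illumina HT-12 bead arrays (6 groups of 2), of which 4 form the comparison. The values analysed are deposited intensities, from which the authors had subtracted background and which they had quantile normalized with GenomeStudio. A deposited table of detection p-values, exported by the authors, matched these intensities on all 12 arrays. Its bead signals did not on 5 arrays and were not used. Intensities ran from -79.4 to 72594 for 47302 probes, and 38.7% of values were under 16 and were set to 16 before log2. Probes with a detection p under 0.05 on both arrays of 1 group or more were kept, with 20298 to 21830 probes detected per array and a lowest detected signal of 42.2 to 51.8. Symbols came from the platform annotation (1 symbol for 30105 probes, several for 8, none for 17189). Several probes were detected for 3497 genes, which were represented by their brightest probe, and 12336 genes remained. Chromosomes and promoters came from RefSeq GRCh38.p14.

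The fit was made with limma 3.58.1 (R 4.3.3) on 6 groups plus slide as a fixed block, with 5 residual degrees of freedom and 2.43 from the prior, and Benjamini-Hochberg adjustment within each contrast. The slide number in the labels pairs the arrays: deviations from the group means of the 2 lines at 48 h had a correlation of 0.24, and over all 15 pairs of groups it ran from -0.02 to 0.28. No label says that the arrays of a group are separate cultures, so p-values measure the spread between arrays. An exact permutation test of 2 against 2 arrays could not go below 0.333. On simulated data with the group layout of these arrays (12336 genes) 42% of genes changed 2-fold and 92% of those changed 4-fold were called. Of the simulated calls 5.63% were unchanged genes. Far fewer genes were changed there than were called in the data, and no floor was applied. The shares therefore may not hold for the real comparison. The number of arrays limits the precision.

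The 34 gene lists, the members and the tests were chosen with earlier results of these data known. Genes are named by rule: BHLHE40, the 15 largest rises and falls called with the same direction on both slides, up to 4 called members of each list in each direction, the members of the study's panel and the 6 called genes with the smallest interaction p. BHLHE41, HIF1A, LDHA, HDAC1, HDAC2, the markers and the genes at the ends of chromosome blocks lie outside this rule and were named after their values were seen. Alternatives were the model, the detection filter, the floor, the choice of probe, the array weights and leaving out each array.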

Additional observations from a re-analysis of the deposited data

How the results depend on the processing

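The limits are the 2 arrays a group, the single knockdown line and the floor, under which 1096 tested genes fell on at least 1 array. Against 2034 called genes, there were 347 with the 4 arrays at 48 h alone, 1467 without the slide as a replicate block, 1536 with no detection filter, 2252 with a detection p under 0.01 on all arrays, 2385 with a floor of 64, 2737 with a constant of 100 added, 2842 with an intensity trend, 1790 with the probe of highest variance and 2161 with array weights. Leaving out 1 array gave 746 to 2027 calls. The arrays whose loss lowered the count most were those at 48 h: BHLHE40-KD replicate 2 (746) and replicate 1 (879), and LM-EV replicate 1 (758) and replicate 2 (820). The cause was not tested beyond the fewer arrays.

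For the interaction of 48 h with 0 h, 0 genes were called, against 1 without the replicate block, 7 with no detection filter, 5 with a floor of 64, 1 with the probe of highest variance and 1 with an intensity trend. Leaving out 1 array gave 0 to 1, the 1 without BHLHE40-KD replicate 1 at 48 h. The rule of 1.5-fold gave 1870 genes, 759 at 2-fold, 1060 with a detection p under 0.01 on all arrays, 2230 with no filter and 1480 with a floor of 64. With 1 slide alone it gave 3423 to 3534.

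The difference of BHLHE40 kept its direction and did not pass in any setting, from -0.06 to -0.86. The differences of 7 genes changed sign or went to 0: NR1D1 and CTSS (0.0 each) with a floor of 64, MDK (0.0), VEGFB (0.54) and TAP2 (0.17) with the probe of highest variance, IL15 when 1 array was left out (-0.58 without LM-EV replicate 1 at 48 h to 0.18 without replicate 2) and TNFSF12 likewise (-0.45 without BHLHE40-KD replicate 1 at 48 h to 0.10 without replicate 2). The cause was not tested. Of 203 single-gene results, 125 no longer passed with the 4 arrays at 48 h alone, 45 with no detection filter and 42 without the replicate block. The 203 include the 10 panel genes that were not called, which could not be lost. With a detection p under 0.01 on all arrays 137 gave the same result, 1 became stronger and the others were not tested.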
